A study of Mus musculus with 2 samples.

Results

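The mesothelial cells of the fetal mouse pancreas were 403 of 5890 kept cell barcodes in single-cell RNA sequencing of the organ at embryonic day 18.5. They were 188 of 3257 barcodes in the knockout library and 215 of 2633 in the control library. The knockout library came from 1 Dpy30∆P pancreas and the control library from 1 control pancreas, both from C57BL/6 embryos and both dissociated with trypsin, so each condition is 1 animal and no difference below has a replicate check. Dpy30 encodes a shared subunit of the Trithorax group (TrxG) complexes that methylate histone H3 at lysine 4. The labels give neither the promoter or Cre line behind the deletion nor the part of Dpy30 that was deleted. A barcode was kept with at least 500 detected genes and at most 10% mitochondrial UMIs (unique molecular identifiers, each marking 1 captured RNA molecule). A kept barcode was called mesothelial with at least 4 UMIs of Upk3b, Upk1b, Lrrn4, Msln and Wt1 together, at least 2 UMIs of Upk3b and Lrrn4 together, and at most 1 UMI each of the endothelial pair Pecam1 and Cdh5 and of the myeloid pair Tyrobp and Fcer1g. These UMI counts chose the cells, so the levels of those genes are a description of the choice.

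The mesothelium is a flat epithelial sheet that arises from the coelomic lining and covers the serosal surface of abdominal organs, where it makes a low-friction surface through membrane mucins and secreted proteins. It is of mesodermal origin but carries simple epithelial keratins and junctions together with mesenchymal genes, and during fetal life it sends signals to the tissue beneath and can give rise to stromal cells. In the pancreas it surrounds the lobes next to the collagen-rich stroma, which was the population set against it here.

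The 2 libraries held 4779 (knockout) and 3986 (control) barcodes with 33048640 and 25398522 UMIs. Mesothelial cells had a median of 6780.0 UMIs (1550 to 24457) in the knockout library and 6722 (1230 to 27656) in the control library, against 5444 and 5575 in collagen-high stroma, so the depth per cell was close between the libraries. Knockout and control cells differed in 2 sex-linked genes. Xist, which female cells transcribe from the inactive X chromosome, had 2180 UMIs in knockout and 1 in control mesothelial cells, and the Y-linked Ddx3y had 0 and 143. Genotype, sex and animal cannot be told apart here. Levels are given in CPM, the UMIs of a gene per 1000000 UMIs summed over the cells of a population in a library. Dpy30 itself was at 117 CPM in knockout and 125 in control mesothelial cells, a ratio of 0.937 (0.763 to 1.15), where the bracket here and below is a 95% interval that covers counting error only. Reads at the 3′ end of a transcript check nothing if they lie outside the deleted part, and a deletion limited to another cell type would leave these cells intact; neither was tested. The groups are called by their labels. The 2 libraries had 27 barcode sequences in common, 0 of them among the knockout and 2 among the control mesothelial cells.

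Upk3b, which encodes a uroplakin-family membrane protein, and Lrrn4, a leucine-rich repeat membrane protein, had to be present in every selected cell, alone or together. Lgals7, which encodes galectin-7, was the marker kept out of the selection to check it. The 250 bases before the annotated start of each are printed, because Upk3b and Lrrn4 helped choose the cells and Lgals7 was the check. Sequences are from RefSeq (GRCm38.p6), 5′ to 3′ on the strand of the gene: Upk3b at chr5:136038246-136038495 (plus), Lrrn4 at chr2:132880863-132881112 (minus) and Lgals7 at chr7:28864136-28864385 (plus). Capitals mark GGAATG or its reverse complement CATTCC, the core motif bound by TEAD factors, which was searched on both strands.
Upk3b: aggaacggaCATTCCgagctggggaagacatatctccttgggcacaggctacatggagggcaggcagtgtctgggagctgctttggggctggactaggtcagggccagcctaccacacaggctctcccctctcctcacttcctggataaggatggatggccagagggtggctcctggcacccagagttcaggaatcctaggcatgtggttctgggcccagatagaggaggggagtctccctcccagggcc
Lrrn4: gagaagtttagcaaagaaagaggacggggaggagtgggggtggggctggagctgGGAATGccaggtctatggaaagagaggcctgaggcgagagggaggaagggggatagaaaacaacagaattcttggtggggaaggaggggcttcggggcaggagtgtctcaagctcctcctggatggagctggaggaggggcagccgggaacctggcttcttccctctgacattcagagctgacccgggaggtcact
Lgals7: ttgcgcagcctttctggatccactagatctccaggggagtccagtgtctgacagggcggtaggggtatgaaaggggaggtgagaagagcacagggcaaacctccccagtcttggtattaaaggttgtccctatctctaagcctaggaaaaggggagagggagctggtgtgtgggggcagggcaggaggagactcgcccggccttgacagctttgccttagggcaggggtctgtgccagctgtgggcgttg
The Upk3b and Lrrn4 windows held 1 match each and the Lgals7 window 0. The motif was in 12.6% of all 32851 promoter windows of this length, and in 2 of the 13 windows found for the 15 genes named below as most above stroma (Gpm6a and Nrgn), a share close to that of all windows. The motif was picked after the sequences were seen, and a match describes letters, not a binding site.

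The selected cells carried the selection genes by choice, and of the markers outside the choice given here they carried Lgals7 but not Calb2. The selection genes were at 1180.4 and 1484 CPM for Upk3b in knockout and control mesothelial cells, 484 and 445 for Lrrn4, 225 and 248 for Upk1b and 107 and 166 for Msln, which encodes mesothelin. In collagen-high stroma, whose cells were allowed at most 1 UMI of the 5 genes, Upk3b had 4 and 8 UMIs and Lrrn4 0 in 1044 knockout and 801 control cells. Wt1, a transcription factor of the coelomic lining, was at 292 and 274 CPM in mesothelial cells against 31.2 and 24 in stroma. Lgals7, not used to choose cells, was at 863 and 968 CPM against 1.85 and 1.91 in stroma. Calb2 (calretinin), also not used to choose cells, had 0 UMIs in the mesothelial cells of both libraries.

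The threshold of 4 UMIs fell where barcodes became few, between a large group with 0 to 2 UMIs and a broad spread of cells with more. Just inside it, with 4 or 5 UMIs, were 7 knockout and 6 control cells with 138 and 1284 CPM of Lgals7. Just outside, with 2 or 3 UMIs, were 85 and 52 barcodes with 12 and 10.2 CPM of Lgals7 and 404 and 352 of Lum, a stromal proteoglycan gene. Barcodes below the limit carried Lum and little Lgals7, and the 7 knockout cells just above it carried less Lgals7 than the 6 control ones.

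**Figure D1:**
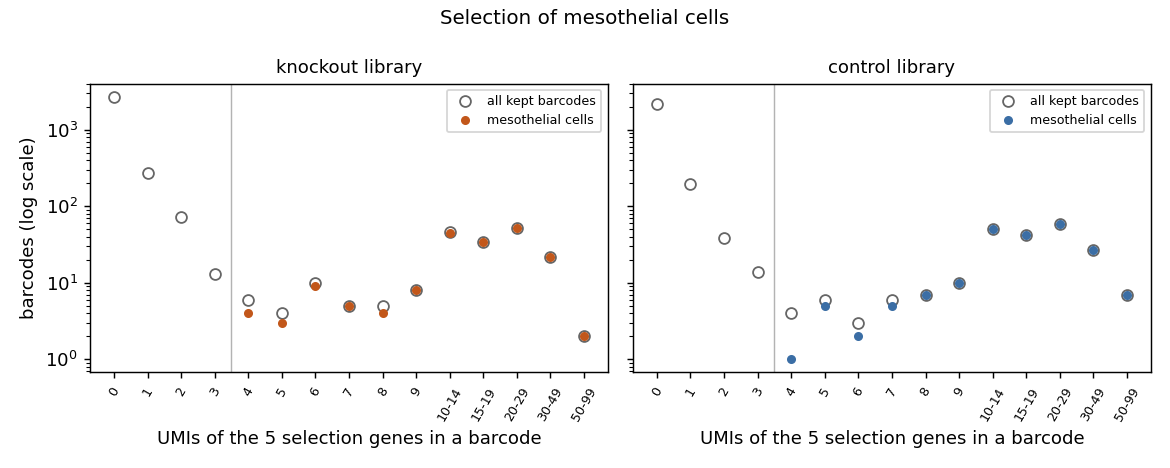
Number of kept barcodes (y axis, log scale) by their summed UMIs of the 5 selection genes (x axis), for the knockout library (left) and the control library (right); filled points are the cells called mesothelial and the grey line marks the threshold of 4 UMIs. In both libraries the number of barcodes falls steeply from 0 to 4 UMIs, and the mesothelial cells are spread broadly above that. Bins are wider from 10 UMIs on, which raises the points there.

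Beyond the selection genes, most measured keratins and mesothelial membrane genes were higher in mesothelial cells than in stroma. Of 10566 genes with at least 50 UMIs over both libraries and both populations together, 1076 (10.2%) were more than 2-fold higher in mesothelial cells than in collagen-high stroma in both libraries and 754 (7.14%) more than 2-fold lower. Of 39 measured mesothelial genes outside the selection, 34 were among the higher and 1 among the lower; the lists were put together from textbook knowledge with earlier results of these data known. Collagen-high stroma means kept barcodes with at least 10 UMIs of Col1a1, Col1a2 and Col3a1 together, at most 2 of the pericyte genes Rgs5, Notch3, Cspg4, Kcnj8 and Myh11, and at most 1 each of the 5 selection genes, of Epcam and Cdh1, and of the endothelial and myeloid pairs.

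Genes of the simple epithelial skeleton and the apical membrane were among those furthest above stroma. Krt19, a simple epithelial keratin, had 809.7 CPM in knockout and 1039.5 in control mesothelial cells against 1.51 and 2.76 in stroma, ratios of 535 (281 to 1174) and 377 (219.8 to 709). Lgals7 stood 467 (260.2 to 938) times above stroma in the knockout library and 507 (266 to 1110.2) times in the control library. Podxl, which encodes the anti-adhesive sialomucin podocalyxin, was at 198 and 219 CPM against 1 UMI in the stroma of each library, ratios of 1176 and 1034 whose lower limits were 209.5 and 184. Slc9a3r1, the NHERF1 scaffold that links such membrane proteins to ezrin, was at 484 and 540.3 CPM against 2.69 and 3.61, and Ezr itself at 273 and 311 against 6.55 and 8.06.

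The other genes most above stroma by the naming rule (the 15 with the largest fold by the interval limit nearest 1, taking the smaller of the libraries' limits) were Krt7, Nrgn, Gpm6a, Ptgds, Cav1, Fgfbp1, Pdzrn4, Dmkn, Tm4sf5, Il18 and Bnc1. Nrgn, known in neurons as the calmodulin-binding protein neurogranin, was at 479 and 321 CPM against 0.336 and 0.424 in stroma, and Gpm6a, another gene best known from neurons, at 257 and 297 against 0.504 and 0.212. Cav1, the caveolar coat protein, was at 1418 and 1419 against 3.70 and 8.06, and Ptgds, a prostaglandin D2 synthase, at 392 and 252 against 0.168 and 0.424. In stroma, 3 of the 15 had 0 UMIs in both libraries. Against a floor of 3 UMIs per library they were at least 227-fold and 129-fold higher in mesothelial cells of the knockout and control libraries for Il18, an interleukin-1 family cytokine, 170.5-fold and 129.8-fold for Tm4sf5, a tetraspan membrane protein, and 140.3-fold and 120.3-fold for Bnc1, a zinc finger protein. No order among the 15 is read from these folds, because most rest on a handful of UMIs in stroma.

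The same contrast was seen cell by cell. After each cell was thinned at random to 2000 UMIs, which left out 1 knockout and 2 control mesothelial cells, 67.4% (60.2 to 74.0) of knockout and 73.7% (67.3 to 79.5) of control mesothelial cells had a UMI of Lgals7, against 0.293% and 0.377% of stromal cells. The stromal shares give the level that free RNA could reach in cells that should lack the gene. For Krt19 the shares were 80.7% and 86.9% of mesothelial cells and 0.195% and 0.628% of stromal cells. Cav1 had a UMI in 95.7% and 89.7% of mesothelial cells.

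**Figure D2:**
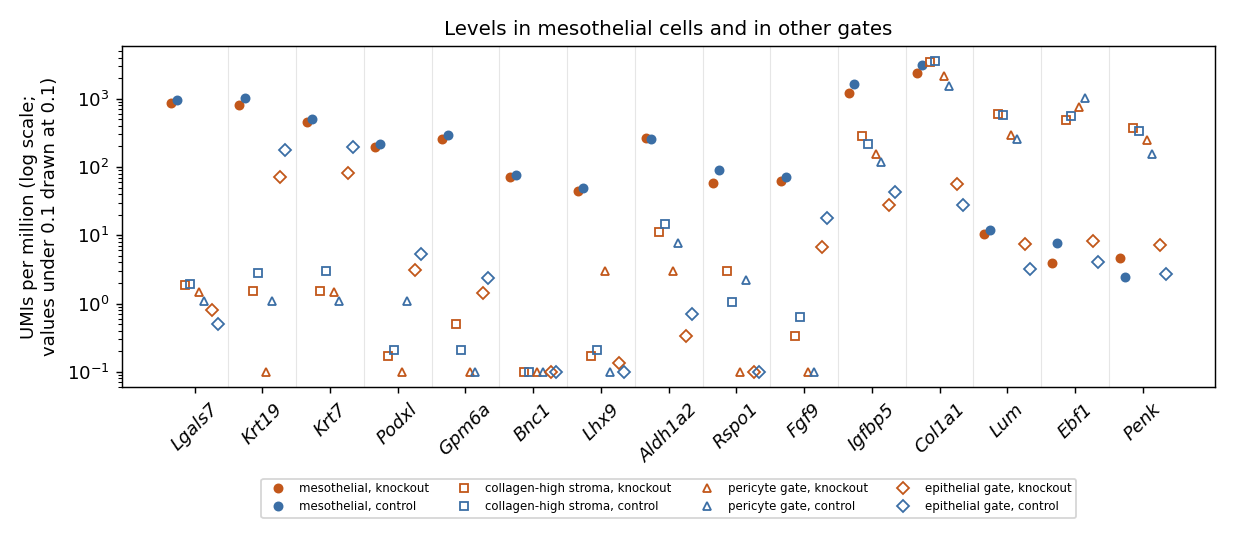
Levels of 15 genes in CPM (y axis, log scale, values under 0.1 drawn at 0.1) in mesothelial cells (filled circles), collagen-high stroma (squares), pericytes (kept barcodes with at least 4 UMIs of the pericyte genes, triangles) and epithelial cells (kept barcodes with at least 2 UMIs of Epcam and Cdh1 together, diamonds), with the knockout library in orange and the control library in blue. Lgals7 to Fgf9 are high in mesothelial cells and low in stroma, and Igfbp5 is present in both but higher in mesothelial cells. Col1a1 is present in both, and Lum, Ebf1 and Penk are stromal.

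Junction genes differed between the mesothelium and the pancreatic epithelium as well as stroma. Epithelial cells here are kept barcodes with at least 2 UMIs of Epcam and Cdh1 together that were not called mesothelial, 1033 in knockout and 802 in control, of all pancreatic epithelial types together. Of 23 measured keratin and junction genes, 21 were more than 2-fold above stroma in both libraries and 0 below. Epcam, which marks pancreatic epithelium and was used to choose these cells, was at 5.95 and 8.44 CPM in mesothelial cells against 289 and 441 in epithelial cells, and Cdh1 (E-cadherin), also used to choose them, was at 9.25 and 9.04 against 155 and 172. Cldn15, a tight junction claudin, was the reverse, at 157 and 147 CPM in mesothelial cells against 3.36 and 5.09 in stroma, with 2 and 1 UMIs in all the epithelial cells of the knockout and control libraries. Crb2, a Crumbs polarity protein, was at 53.5 and 44.6 CPM in mesothelial cells, against 0.0679 and 0.501 in epithelial cells. Cgn (cingulin, of the tight junction) and Cxadr (an adhesion receptor of the junction) were present in both, Cgn at 72.0 and 101 in mesothelial and 46.4 and 50.4 in epithelial cells. The keratins 8 and 18 were higher in epithelial cells, with Krt8 at 206 and 245 in mesothelial cells and 758 and 927 in epithelial cells.

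Transcription factors of the coelomic lining were mixed. Of 23 measured, 10 were more than 2-fold above stroma in both libraries and 2 below. Lhx9, a LIM homeobox factor of the coelomic epithelium, had 68 and 82 UMIs in mesothelial cells and 1 in the stroma of each library. Gata6 was at 217 and 215 CPM against 36.1 and 33.1 in stroma, and Osr1, an odd-skipped factor, at 654 and 471 against 118 and 83.2. Its relative Osr2 was the reverse, at 13.2 and 3.01 in mesothelial cells against 328 and 316 in stroma, and Tcf21, a factor of visceral mesenchyme, was at 1.98 and 5.43 against 48.2 and 50.5. Barx1, a factor of stomach mesenchyme, and Isl1, a factor of endocrine cells and pancreatic mesenchyme, were also above stroma, Isl1 at 163 and 132 against 14.6 and 31.0. Nr2f2, Meis1 and Klf4 were at like levels in both populations, with ratios between 0.886 and 1.18.

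The matrix program was split. Collagen UMIs per cell (Col1a1, Col1a2 and Col3a1) had a median of 50.5 in knockout and 60 in control mesothelial cells. The median was 49 in the stroma of both libraries, although only the stroma was chosen on them. These counts are not scaled for depth, and mesothelial cells had more UMIs per cell (medians of 6780 and 6722 against 5444 and 5575). In CPM the whole collagen and matrix list summed to 17309 and 20880 in mesothelial cells against 23193 and 24223 in stroma. Of 37 measured collagen and matrix genes, 6 were above and 18 below stroma by more than 2-fold in both libraries. The 3 furthest above encode basement membrane proteins of epithelia: Frem2 and Fras1, of the Fraser complex, and Npnt (nephronectin, an integrin ligand). Npnt was at 211 and 142 CPM against 4.03 and 3.40 in stroma, and Frem2 at 157 and 176 against 0.504 and 0.849. Elastin (Eln) and fibulin 2 (Fbln2) were also above stroma, Eln at 492 and 777 against 174 and 219.6. The type IV collagen genes of basement membranes were below, Col4a1 at 13.2 and 12.1 against 236 and 340.2.

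Genes most below stroma were the stromal proteoglycan Lum, the matricellular Postn, the factors Ebf1 and Prrx1, and the secreted or surface genes Penk (proenkephalin), Sparcl1, Serpine2, Cthrc1, Il6 and Agtr2 (an angiotensin receptor). Ebf1 was at 3.97 and 7.84 CPM in mesothelial cells against 495 and 557 in stroma, and Lum at 10.6 and 12.1 against 592 and 582. Il6, the cytokine interleukin 6, had 0 UMIs in mesothelial cells of both libraries, against 406 and 258 in knockout and control stroma. Of 19 measured imprinted growth genes, 8 were more than 2-fold below stroma and 1 above; Cdkn1c, a cell cycle inhibitor, was at 306 and 296 against 1731 and 2306, and the 1 above was Nnat (neuronatin), at 237 and 273 against 7.39 and 13.6.

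Ligand genes were divided between the mesothelium and the stroma. Of 50 measured growth factors and inhibitors, 16 were above and 13 below stroma by more than 2-fold in both libraries. Fgf9, an FGF that signals to mesenchymal receptors, was at 62.8 and 71.8 CPM against 0.336 and 0.637 in stroma, and Rspo1, a Wnt potentiator, at 58.8 and 89.2 against 3.02 and 1.06. The platelet-derived growth factor gene Pdgfa was at 120.3 and 120.0 against 11.9 and 9.97 in stroma, and Pdgfc at 39.7 and 41.0 against 0.840 and 1.27. The receptor gene Pdgfra was the reverse, at 1.32 and 6.03 in mesothelial cells against 88.2 and 102 in stroma. The insulin-like growth factor (IGF) binding proteins Igfbp2, Igfbp5 and Igfbp6 were above stroma, Igfbp5 at 1208 and 1657 against 281 and 215. Stromal ligands were low in mesothelial cells: Fgf7 and Hgf had at most 1 UMI in either library, and Ptn (pleiotrophin) was at 194 and 246 against 2966 and 2359. Of 37 measured receptor and channel genes, 8 were above and 10 below. Met, the receptor of Hgf, was at 39.7 and 20.5 CPM in mesothelial cells against 0.840 and 1.70 in stroma.

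The retinoic acid genes were divided in the same way. Aldh1a2, which makes retinoic acid and is a known mesothelial gene, was at 266 and 260.5 CPM in mesothelial cells against 11.1 and 14.4 in stroma. Rarres2, which encodes chemerin, was at 1253 and 1533 against 192 and 184, and Rarres1 had 70 and 59 UMIs against 0 in stroma of both libraries. Crabp1, a retinoic acid binding protein, was at 25.8 and 6.63 in mesothelial cells against 114 and 37.1 in stroma, and the retinoic acid-degrading Cyp26b1 had 1 and 3 UMIs. Over the list, 6 of 14 measured genes were above and 4 below stroma by more than 2-fold in both libraries.

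Among themselves the mesothelial cells differed most in haemoglobin RNA, and a minority were cycling by their RNA. Over 2314 genes with a mean of at least 0.1 UMIs per thinned cell in both libraries, the median ratio of variance to mean was 1.04 in knockout and 1.05 in control cells, where counting noise gives 1. The 4 genes with the highest ratio were haemoglobins; 32 knockout and 15 control mesothelial cells had at least 10 haemoglobin UMIs. Ube2c, a mitotic ubiquitin-conjugating enzyme, came next after Malat1 and Actb, with ratios of 4.64 and 4.03 and up to 12 and 8 UMIs in a thinned cell. At least 3 UMIs of the 32 G2 and M phase genes were found in 18.7% (13.4 to 25.1) of knockout and 18.3% (13.4 to 24.2) of control mesothelial cells, against 16.9% and 14.4% of stromal cells. Lgals7 and Dmkn (dermokine) were uneven too, with variance to mean ratios of 2.27 and 2.70 for Lgals7 and 2.21 and 2.32 for Dmkn. This ranking was chosen after its values were seen.

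Mesothelial cells were a smaller share of the knockout library than of the control library. They were 5.77% (5.00 to 6.63) of kept barcodes in the knockout library and 8.17% (7.15 to 9.28) in the control library, a ratio of 0.707 (0.585 to 0.854). Within mesothelial cells, collagen-high stroma and pericytes together, so without the epithelium, their share was 14.1% (12.3 to 16.1) in knockout and 18.6% (16.4 to 21.0) in control, for a ratio of 0.757 (0.633 to 0.906). Both intervals lie below 1. A share of barcodes also depends on how a pancreas was dissected and digested; with 1 pancreas per condition this cannot be told apart from genotype.

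Between the libraries most genes of the mesothelial cells were close. Of 6508 genes with at least 50 UMIs in mesothelial cells of both libraries together, 75 (1.15%) were more than 2-fold higher in knockout and 79 (1.21%) more than 2-fold lower. Of the 75 higher, 27 had over 5 times the level in another cell population of the knockout library, and 17 were digestive enzyme and other acinar genes. Lists were read on genes with at least 20 UMIs in mesothelial cells; of 9492 such genes 49.3% had a ratio above 1 and 50.7% below, with 2.18% past 2-fold higher and 2.97% past 2-fold lower. All 19 measured acinar markers had a ratio above 1, 18 of them past 2-fold; summed they were at 3569 CPM in knockout and 487 in control mesothelial cells, and at 4797 and 1263 in stroma. Cell by cell the gap was smaller, since the median cell had 1032 CPM of acinar markers in knockout and 443 in control, and the highest 140000.0 and 17116. The median log2 ratio of the list was 2.73, and 1.53 without the mesothelial cells of 10 or more haemoglobin UMIs. Red cell markers summed to 19707 and 8883, and endocrine markers to 376 and 825. The part of RNA from these other cells in the results below was not tested. The 12 genes named in each direction leave out those with over 5 times the level in another population, haemoglobin, mitochondrial, ribosomal and sex-linked genes. Summed endothelial markers were at 150.0 CPM in knockout and 168 in control mesothelial cells, with 4 and 3 of 14 markers at 0, and summed myeloid markers at 17.8 and 25.9, with 5 and 3 of 14 at 0.

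Genes that mesothelial cells have and stroma lacks were among the furthest apart. Slpi, a secreted leukocyte protease inhibitor (GRCm38.p6 chromosome 2, 164354070 to 164356507), had 89 UMIs in knockout and 482 in control mesothelial cells, or 58.8 and 291 CPM, a ratio of 0.202 (0.160 to 0.254). Clic3, a chloride channel family protein, had 20 and 93 UMIs, a ratio of 0.236 (0.138 to 0.385). Klk14, a kallikrein serine protease, had 16 and 87, a ratio of 0.202 (0.110 to 0.346). These 3 had at most 2 UMIs in the stroma of either library, and Slpi had 24 and 26 in knockout and control myeloid cells. A further pair of secreted genes was lower as well, C3, the central complement component, at 23.1 CPM in knockout and 66.9 in control for a ratio of 0.346 (0.229 to 0.509), and Matn4, which encodes the matrix adaptor matrilin 4, at 29.7 and 79.6 for a ratio of 0.374 (0.260 to 0.528). Reep1, an endoplasmic reticulum shaping protein, had 6 and 50 UMIs in knockout and control mesothelial cells, a ratio of 0.132 (0.0461 to 0.307), and in stroma 22 and 14, a ratio of 1.24 (0.609 to 2.63).

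Krt15, a keratin of basal epithelia (GRCm38.p6 chromosome 11, 100131759 to 100135949), was higher in knockout. It had 146 UMIs in knockout and 54 in control mesothelial cells, or 96.5 and 32.6 CPM, a ratio of 2.96 (2.16 to 4.13), and 0 in stroma of both libraries. Other keratins had ratios below 1: Krt14, at 25.8 and 37.4 CPM, had a ratio of 0.690 (0.450 to 1.05), and Krt19 of 0.779 (0.723 to 0.839). Myh8, a muscle myosin heavy chain gene nearly absent from stroma, was at 62.1 and 16.9, with a ratio of 3.68 (2.39 to 5.83). Arc, an activity-induced gene, was at 49.6 and 15.1, with a ratio of 3.29 (2.07 to 5.40).

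Other named genes were past 1 in the same direction in stroma. Crabp1 had a ratio of 3.89 (1.95 to 8.41) in mesothelial cells and 3.07 (2.59 to 3.64) in stroma, Rspo3 (a Wnt potentiator) 2.88 (1.83 to 4.67) and 1.81 (1.49 to 2.21), Hist1h1b (a linker histone) 2.59 and 1.55, Hddc3 3.08 and 3.81, and Cap1 (an actin regulator) 2.51 and 2.08. Hmgcs1 and Fdps, of cholesterol synthesis, and their regulator Insig1 were lower in both populations of the knockout library. Igf1, which passed no 2-fold limit, was at 675 and 368 CPM in mesothelial cells, with a ratio of 1.83 (1.66 to 2.03), and of 1.71 (1.59 to 1.83) in stroma. By contrast Ier2, an immediate early gene, had a ratio of 2.02 (1.88 to 2.17) in mesothelial cells and 1.15 (1.10 to 1.19) in stroma, and Hspa1a, an inducible heat shock protein, 0.406 (0.315 to 0.521) and 0.993 (0.818 to 1.21). Neat1, a nuclear noncoding RNA, was at 92.5 and 204 CPM in knockout and control, a ratio of 0.453 (0.369 to 0.553).

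For 4 of the 24 named genes a single cell moved the ratio by over 1.5 times. Ghrl, the ghrelin hormone gene of endocrine cells, had 398 UMIs in knockout and 14 in control mesothelial cells, a ratio of 31.2, but 395 came from 1 barcode, which also held 15 UMIs of the endocrine gene Chga and 13 of Upk3b. Without the top cell of each library the ratio was 0.274, on the other side of 1. Endov, an endonuclease gene, had a ratio of 4.20 and of 1.10 without the top cells, and P3h3, a collagen prolyl hydroxylase, of 0.410 and 0.717. For Klk14 the ratio was 0.202 with the top cells and 0.126 without. For Slpi and Krt15 the ratios without those cells were 0.201 and 3.09, close to the full values.

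**Figure D3:**
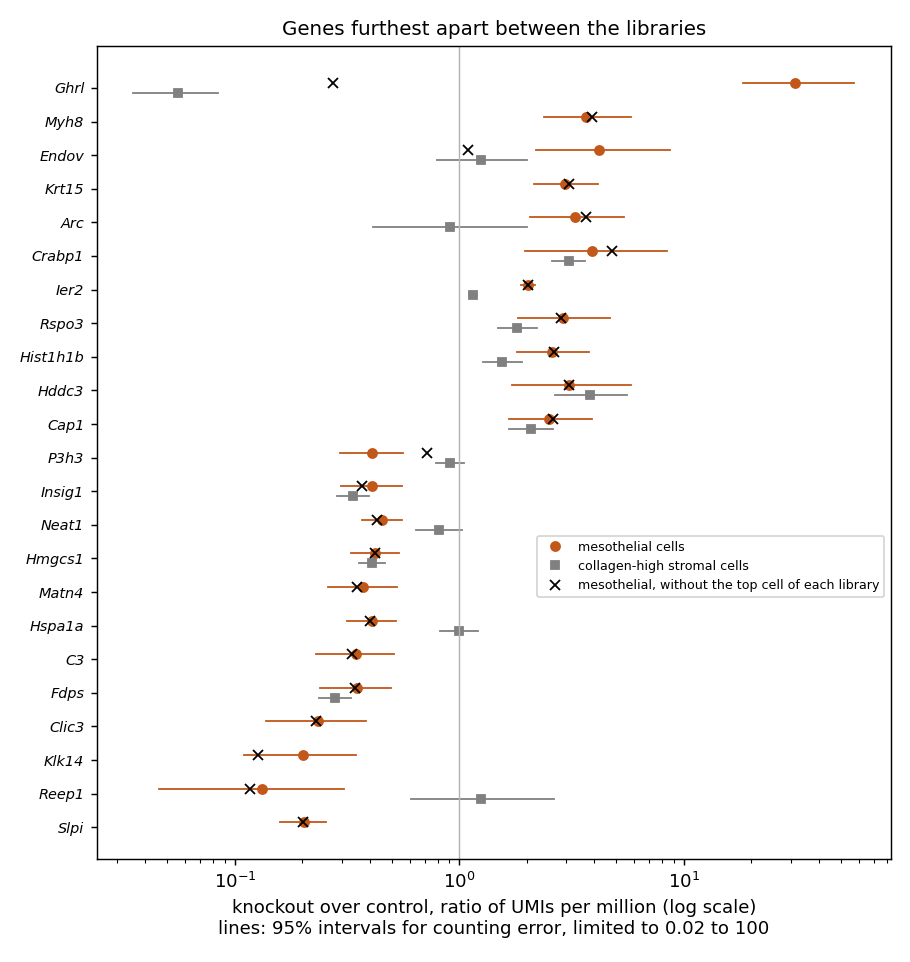
Ratio of CPM, knockout over control (x axis, log scale), for 11 of the 12 genes furthest higher and the 12 furthest lower in mesothelial cells; circles are mesothelial cells, squares collagen-high stromal cells where these held at least 20 UMIs, lines 95% intervals for counting error and crosses the mesothelial ratio without the cell with most UMIs in each library. Slpi (0.202) and Krt15 (2.96) keep their place without the top cell, while the circle and cross of Ghrl lie on opposite sides of 1.

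Cell by cell, fewer knockout cells had a UMI of Slpi and more had one of Krt15. Of thinned mesothelial cells 10.2% (6.23 to 15.4) in knockout and 21.1% (15.8 to 27.2) in control had a UMI of Slpi, and 18.7% (13.4 to 25.1) and 3.29% (1.33 to 6.65) one of Krt15. The most Slpi UMIs in a thinned cell were 2 in knockout, while 5 control cells had 9 or more, so the amount per cell differed as well. For Igf1 the shares were 62.6% and 39.0%, and for Lgals7, by the shares given above, the intervals of the libraries overlapped. In control mesothelial cells C3 was found in 24.4% of the 45 cells with Slpi and 8.33% of the other cells, and Clic3 in 20.0% and 6.55%. Lgals7 was in 75.6% and 73.2% of the same cells. In knockout cells C3 was found in 10.5% of the 19 cells with Slpi and 5.36% of the others, which is 2 cells with both, too few to compare. These shares are a description of 1 library each.

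**Figure D4:**
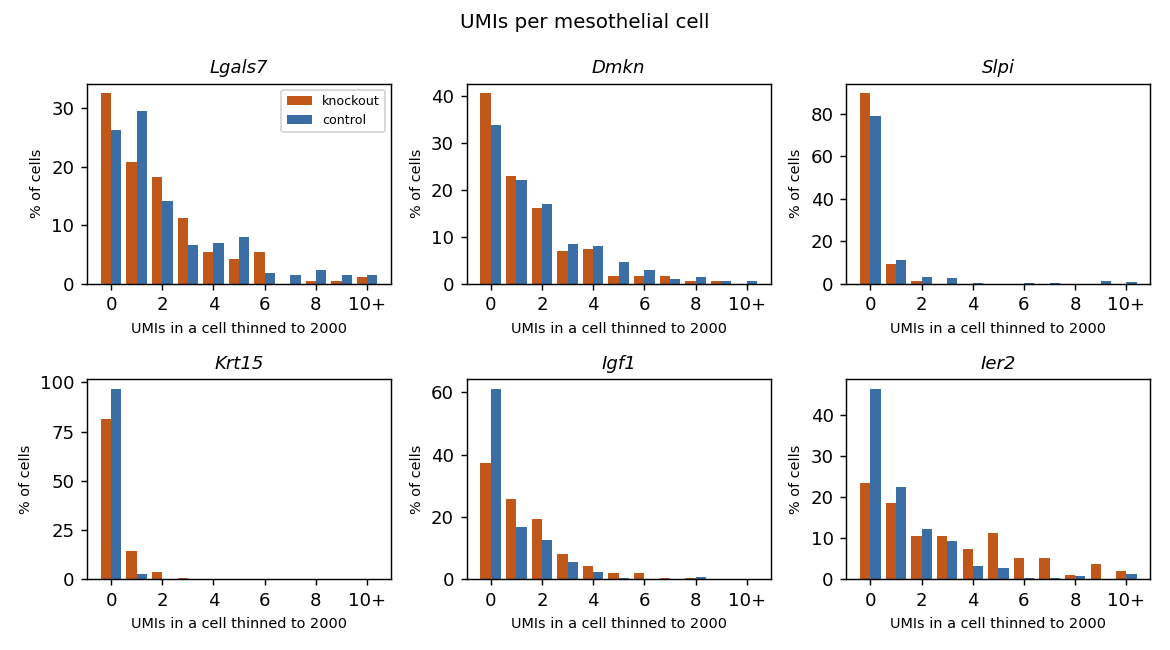
Share of mesothelial cells (y axis, %) by the number of UMIs of a gene after thinning each cell to 2000 UMIs (x axis), for 6 genes, with 187 knockout cells in orange and 213 control cells in blue. Knockout cells more often have 0 UMIs of Slpi and less often 0 of Krt15, Igf1 and Ier2, and 67.4% of knockout against 73.7% of control cells have a UMI of Lgals7.

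Over whole gene lists the identity genes were a little lower in knockout. Against the 50.7% of all genes below 1, the list leaned lower. Of 40 mesothelial genes outside the selection, 10 were above 1 and 30 below, with a median log2 ratio of -0.20, and 2 were past 2-fold lower (Slpi and C3). Dmkn was at 653 and 909 CPM, Igfbp6 at 418 and 684, while Cav1, at 1418 and 1419, and Aldh1a2, at 266 and 260.5, were level. In stroma, where most of these genes are low, the median was -0.30. Of the transcription factors 16 of 25 were above 1, with a median of 0.05, and Osr1 had a ratio of 1.39 (1.26 to 1.53) against 1.42 (1.25 to 1.61) in stroma. Osr2 was past 2-fold higher, on 20 and 5 UMIs, and Tbx18 and Klf5 past 2-fold lower. Keratin and junction genes were divided, 13 above and 15 below, with a median of -0.06; Cldn1, Ocln and Krt15 were the 3 past 2-fold higher.

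More matrix and complement genes were below 1 than above. Of 36 matrix genes 29 were below 1, with a median log2 ratio of -0.32, against 28 of 37 and -0.17 in stroma. Eln had 492 CPM in knockout and 777 in control mesothelial cells, a ratio of 0.633 (0.577 to 0.693), and Fn1 (fibronectin) 107 and 189.9, a ratio of 0.564 (0.464 to 0.684); Npnt was the reverse, with a ratio of 1.49 (1.25 to 1.77). Complement and protease inhibitor genes had a median of -0.30, with 11 of 16 below 1 and 3 past 2-fold lower: Slpi, C3 and C2, the last at 49.6 and 101. Growth factors and inhibitors had a median of -0.15, 15 above and 28 below. Past 2-fold higher were Rspo3, Bmp2 (at 29.7 and 12.7 CPM) and the low Wnt6 (17 and 4 UMIs), and past 2-fold lower were Fgf2, Wnt4, Igfbp7, Vegfa and Cxcl1. The retinoid list had a median of -0.08 and the receptor list of -0.06, both near 0; Met was at 39.7 and 20.5, a ratio of 1.93 (1.25 to 3.04).

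Cell cycle, stress and metabolic lists differed in how far the difference was shared with stroma. All 32 G2 and M phase genes had a ratio above 1 in mesothelial cells, with a median log2 ratio of 0.35, and all 32 in stroma, with 0.34. The shares of mesothelial cells with these genes, given above, had overlapping intervals. With the mesothelial cells of 10 or more haemoglobin UMIs left out the median was -0.027, on the other side of 0. S phase genes had a median of -0.16 with 21 of 29 below 1, and a positive one after thinning (0.018) or with cells weighted equally (0.059). In stroma the S phase median was 0.04, with 13 of 32 below 1. Immediate early and heat shock genes had a median of 0.24 in mesothelial cells and 0.03 in stroma; Egr2 was at 65.4 and 32.0 CPM in mesothelial cells, a ratio of 2.05 (1.45 to 2.91), and Btg2 at 1256 and 789, a ratio of 1.59 (1.48 to 1.71). Tissue dissociation is known to induce these genes, and its part in the difference was not tested.

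The sterol and fatty acid synthesis list, added after its genes were seen among the named ones, had ratios below 1 in mesothelial cells and in stroma; having been chosen on these values, it is a description only. In mesothelial cells 27 of 29 measured genes were below 1 and 13 past 2-fold lower, with a median log2 ratio of -0.82, and in stroma 31 of 32 were below 1, with a median of -1.31. Hmgcs1, which makes the HMG-CoA that the mevalonate pathway starts from, was at 61.5 and 146 CPM in mesothelial cells, a ratio of 0.421 (0.328 to 0.537), and Idi1, a later enzyme of the pathway, at 43.0 and 97.7, a ratio of 0.440 (0.325 to 0.590).

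The list of TrxG complex genes, which holds Dpy30, had a median of 0.09, with 12 of 19 genes above 1 and 0 past 2-fold either way. Psip1, a chromatin reader, was the nearest to 2-fold, at 108 and 205 CPM, a ratio of 0.526 (0.433 to 0.635) in mesothelial cells and 1.01 (0.860 to 1.19) in stroma. Interferon and MHC class I genes had a median of -0.10, and H2-D1, a classical class I gene, was at 16.5 and 65.7 CPM, a ratio of 0.251 (0.156 to 0.391) in mesothelial cells and 0.0880 (0.0455 to 0.156) in stroma. Oxidative phosphorylation genes, had a median of -0.02, with 19 of 44 above 1.

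**Figure D5:**
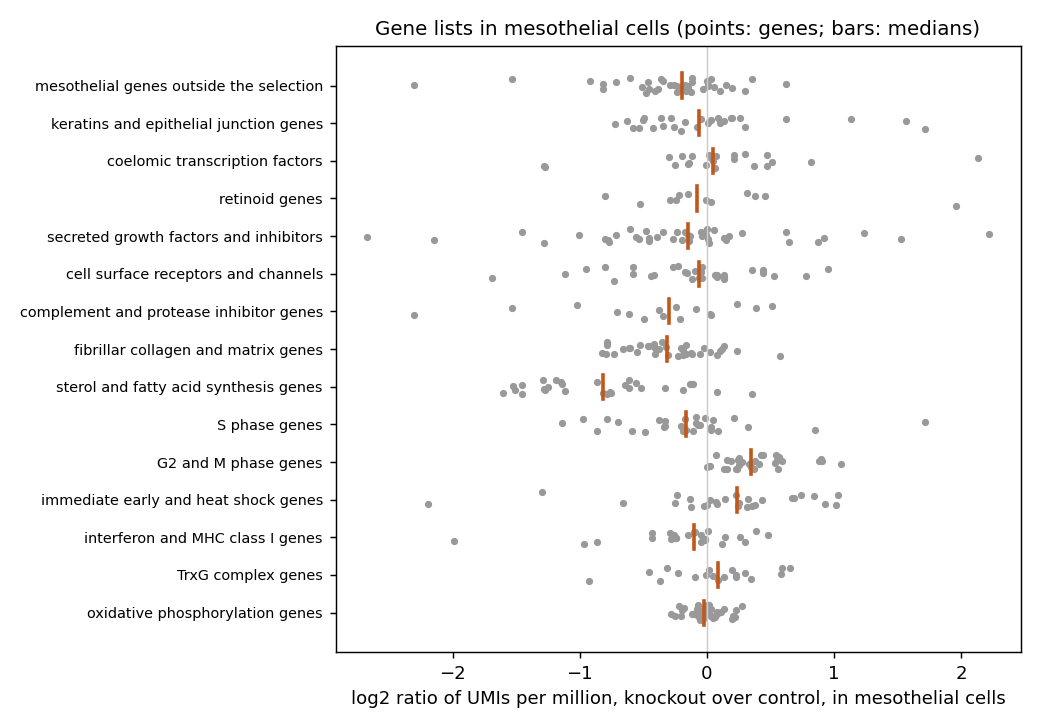
Log2 ratio of CPM, knockout over control (x axis), of the genes with at least 20 UMIs in mesothelial cells, for 15 gene lists (rows); each point is a gene and the bar the median of its list. The sterol list lies furthest below 0 (median -0.82), the G2 and M phase list above it (0.35), and oxidative phosphorylation genes near 0 (-0.02).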

How the data were processed

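The deposited gene by barcode matrices of UMI counts were used, 1 per library; the authors made them with Cell Ranger 3.0.0 on 10x Genomics 3′ libraries, per the file headers, and mouse build GRCm38 (mm10) and Seurat are named in the submitters' processing notes. No normalisation had been applied to the counts. Barcodes were filtered, assigned to populations by the UMI limits given above, and summed per library and population with pandas 2.3.3, NumPy 2.4.6 and SciPy 1.17.1 under Python 3.11.15. Ratios have exact conditional binomial intervals and shares have Clopper-Pearson intervals, with a log-normal interval for the ratio of shares. All are at 95% and cover counting error only. The UMIs of a gene and of its population set the width for ratios of levels, and numbers of cells set it for shares. Differences between animals do not enter. With 1 library per condition no test was possible and no p-value was computed. The intervals of shares count cells as independent draws from 1 library, so they say nothing about replicates of a condition.

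A gene counted as past 2-fold had at least 50 UMIs in the mesothelial cells of both libraries together, or over both populations in the comparison with stroma; lists were read at 20 UMIs. Genes at 0 in a population were set at a floor of 3 UMIs. Against stroma the 15 genes higher and 10 lower with at least 100 UMIs were named, and between libraries the 12 each way, by the interval limit nearest 1; members of a list could be named beside the count of the whole list. Selection, haemoglobin, mitochondrial, ribosomal and sex-linked genes, unnamed gene models and genes with over 5 times the level in another population were left out of the naming. Of 729 list entries 727 were in the files. The members and lists were chosen with earlier results of these data known, and the sterol list and the motif after their values were seen. Doublets were called with Scrublet in scanpy 1.11.5 (24 knockout and 22 control barcodes, 3 and 5 of them mesothelial) and left out only as an alternative. The ratios, intervals and ranking by interval limit were tested on simulated counts with counting noise only. Uneven cells and RNA from other cells were not simulated, so their effect on the intervals and the ranking was not tested. Some genes and 1 population are not reported here. The authors' own cluster and differential expression files were not used here.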

Additional observations from a re-analysis of the deposited data

Results flagged for a closer look

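Only genes named between the libraries and members of the lists were screened, with at least 20 UMIs over both libraries in each population. The number screened was not recorded, so no share is given, and other genes were not screened. For 8 genes the ratio of knockout over control lay on opposite sides of 1 in mesothelial cells and in collagen-high stroma. Both intervals left out 1 and both ratios were past a minimum fold. This limit was set after the values were seen, and the difference between the populations was not tested. Of the signalling genes, Rspo1 had ratios of 0.659 (0.501 to 0.863) in mesothelial cells and 2.85 (1.02 to 9.82) in stroma, Wnt4 of 0.157 (0.0299 to 0.524) in mesothelial cells and 1.53 (1.18 to 1.98) in stroma, Sfrp2, a secreted Wnt inhibitor, of 0.718 (0.573 to 0.898) in mesothelial cells and 1.89 (1.41 to 2.55) in stroma and Ptn of 0.787 (0.675 to 0.917) in mesothelial cells and 1.26 (1.23 to 1.29) in stroma. Igfbp5 had ratios of 0.729 (0.687 to 0.773) in mesothelial cells and 1.30 (1.21 to 1.41) in stroma, and Clu, the secreted chaperone clusterin, of 0.709 (0.564 to 0.888) in mesothelial cells and 1.85 (1.45 to 2.38) in stroma. The hormone genes Ghrl and Iapp had ratios of 31.2 and 0.237 in mesothelial cells and of 0.0557 and 1.43 in stroma. For Ghrl 395 of the 398 knockout UMIs were in 1 barcode, and summed endocrine markers were at 376 CPM in knockout and 825 in control mesothelial cells. Wnt4 rests on 3 and 21 UMIs in knockout and control mesothelial cells. The stromal ratio of Rspo1 rests on few UMIs, at the low stromal level given above, and its interval begins at 1.02.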

How the results depend on the processing

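The share of mesothelial cells in knockout over control was between 0.631 and 0.757 over the alternatives run, against 0.707. Past 2-fold higher and lower in knockout were 75 and 79 of 6508 genes, and 207 and 282 of 9492 with at least 20 UMIs. At 1.5-fold, on the same 6508 genes, the counts were 279 and 430. Past 2-fold were 18 and 19 genes after thinning to 2000 UMIs, and 39 and 35 with at least 100 UMIs. Fewer genes are measured under both of these settings and their number was not recorded, so the counts are not shares to compare. Higher genes numbered 49 without mesothelial cells of 10 or more haemoglobin UMIs and 48 without genes of other populations, both added after seeing the data. Above stroma were 528 genes after thinning, where fewer genes are measured, against 1076 of 10566 without. The G2 and M phase median (0.35) was 0.54 with a stricter selection, 0.12 after thinning, 0.20 with cells weighted equally and -0.027 without the haemoglobin cells, where the interferon median was 0.014. The S phase median was 0.018 after thinning and 0.059 with equal weights, and the p53 median 0.19 after thinning. The ductal median was 0.26 without called doublets, 0.14 without Epcam-positive cells and 0.17 after thinning, and the gonadal median 0.028 without Epcam-positive cells. The log2 ratio of Ghrl was -1.87 without its top cell, and the ratio of shares of cells with Lgals7 was 1.06 when thinned to 1000 UMIs, against 0.914. Apart from Ghrl and the changes read from the alternative's own construction (fewer cells or UMIs), the cause was not tested. Among the 24 genes named between libraries 223 of 240 alternative values stayed within the counting interval, 16 moved beyond it and 1 reversed; against stroma 267 of 275 stayed within it and 8 moved. No paired analysis was possible because each condition had 1 library.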

Other observations

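Genes of antigen presentation and of the interferon response were mixed between mesothelial cells and stroma. Of 23 measured, 9 were more than 2-fold above stroma in both libraries and 3 below, where 10.2% and 7.14% of all genes were. Their summed level was 2587 CPM in knockout and 2874 in control mesothelial cells against 2932 and 2961 in stroma. Tapbp, the tapasin that loads MHC class I molecules, was at 150.0 CPM in knockout and 202 in control mesothelial cells against 9.74 and 14.2 in stroma, and Gbp2, an interferon-induced GTPase, at 105 and 85.6 against 5.88 and 6.79. The water channel gene Aqp1 was at 98.5 and 119 against 6.89 and 4.46, and Itga3, a laminin-binding integrin, at 27.8 and 21.7 against 0.168 and 0.

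The remaining lists varied between the libraries, where the median of all 9492 genes with at least 20 UMIs was -0.005. The median log2 ratio of knockout over control was -0.18 for 17 p53 response genes, -0.14 for 23 glycolysis and hypoxia genes and 0.03 for 16 imprinted growth genes. It was -0.17 for 12 mesenchymal and 0.58 for 7 pericyte and smooth muscle markers, -0.26 for 8 ductal markers and -0.91 for 2 gonadal and adrenal coelomic genes. Of 11 neural crest and Schwann markers 6 had 0 UMIs in the mesothelial cells of each library, and none reached 20 UMIs.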
